A study of Schizosaccharomyces pombe 972h- with 4 samples.

Results

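The glycerol metabolism genes gpd1 and dak2 of the fission yeast Schizosaccharomyces pombe are 2 of the 4997 targets on the arrays of this study. They were found by their systematic names, SPBC215.05 for gpd1 and SPAC977.16c for dak2, in the study's supplementary gene tables. Both were chosen with their values on these arrays already known, dak2 for its lower signal in hypoxia and gpd1 because the deposited sources of values give different ratios for it. Their levels and ratios are therefore a description, and no test is attached to them. Transcripts were measured in Ofd2Δ cells in hypoxia, Ofd2Δ cells in normal oxygen, wt cells in hypoxia and wt cells in normal oxygen. In the Ofd2Δ strain the gene ofd2 (SPAP8A3.02c), which encodes a dioxygenase, was deleted with a KAN marker (strain DL1003), and the wt strain carried no such deletion. Hypoxia was less than 1% oxygen for 90 min in an AnaeroGen system, and normal oxygen was 20% in flasks. All cells grew at 30 °C in YES, a rich yeast extract medium, with 2% glucose and supplements. The RNA of 2 experiments was pooled before labelling, and with 1 array for each condition a difference between arrays has no replicate check. The spread between spots or blocks given here is technical. No named target belongs to ofd2, and the strain labels could not be checked by its level.

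Glycerol is made from the glycolytic intermediate dihydroxyacetone phosphate. Glycerol-3-phosphate dehydrogenase, which gpd1 encodes, reduces that intermediate to glycerol-3-phosphate and oxidises NADH to NAD+ in doing so, and a phosphatase then releases glycerol. Glycerol production is known both as a way to regenerate NAD+ when respiration is limited and as the osmolyte response of yeast cells. Dihydroxyacetone kinase, which dak2 encodes, phosphorylates dihydroxyacetone, the product of glycerol dehydrogenase, and so returns carbon from glycerol to glycolysis. The gene gpd1 is distinct from gpd3, which encodes the glycolytic enzyme glyceraldehyde-3-phosphate dehydrogenase. In the RefSeq annotation of assembly ASM294v3, used here for names and neighbours only, gpd1 lies on chromosome II and dak2 on chromosome I, with 23 coding genes listed before dak2 on its chromosome. The right-hand neighbour of dak2 is SPAC977.17, which is annotated as similar to a channel protein of Saccharomyces cerevisiae, and the annotated spans of these neighbours overlap.

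Each gene was measured by 7 probes, each spotted once in each of 2 blocks of the array, giving 14 spots. The median gene spot was 4009 intensity units in Ofd2Δ cells in hypoxia, against 6597 to 7529 on the other arrays, and the medians of the random control spots lay between 112 and 126. By the file headers the Ofd2Δ hypoxia array was scanned apart from the others, and in hypoxia strain and scan cannot be told apart. Within Ofd2Δ cells hypoxia and scan cannot be told apart either. This limit holds for every Ofd2Δ ratio of hypoxia to normal oxygen and for the ratio of ratios. Levels from the probe intensities are given after background correction, quantile normalisation over the 4 arrays and a summary of the probes in each block. The authors also deposited a table of normalised values with 2 rows per target, and its values are set beside those from the probe intensities throughout. Whether a row corresponds to a block is unknown. Across targets, the difference between rows correlated with that between blocks at r of -0.014 to 0.015 on the 4 arrays.

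The array signal of gpd1 was high in every condition. Its level, which ranks probe signal and not transcript abundance since probes differ in response, stood at the 99.1st percentile of all targets in Ofd2Δ cells in hypoxia, the 98.0th in Ofd2Δ cells in normal oxygen, the 98.9th in wt in hypoxia and the 97.8th in wt in normal oxygen. In the scanned intensities before correction, the gpd1 spots ran from 15257 to 35585 with a median of 19129 in Ofd2Δ cells in hypoxia, against 30446 to 55861 with a median of 38792 in Ofd2Δ cells in normal oxygen. In wt they ran from 39472 to 59083 with a median of 42951 in hypoxia, against 33353 to 59771 with a median of 40322 in normal oxygen. On every array 14 of 14 gpd1 spots exceeded the 95th percentile of the controls and 0 reached 65000, close to the scanner maximum. The median of all gene spots was also lower on the Ofd2Δ hypoxia array, at 4009 against 6597 in Ofd2Δ cells in normal oxygen. The gpd1 spots fell by more than that, with a median spot ratio of 0.500 before correction.

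**Figure D1:**
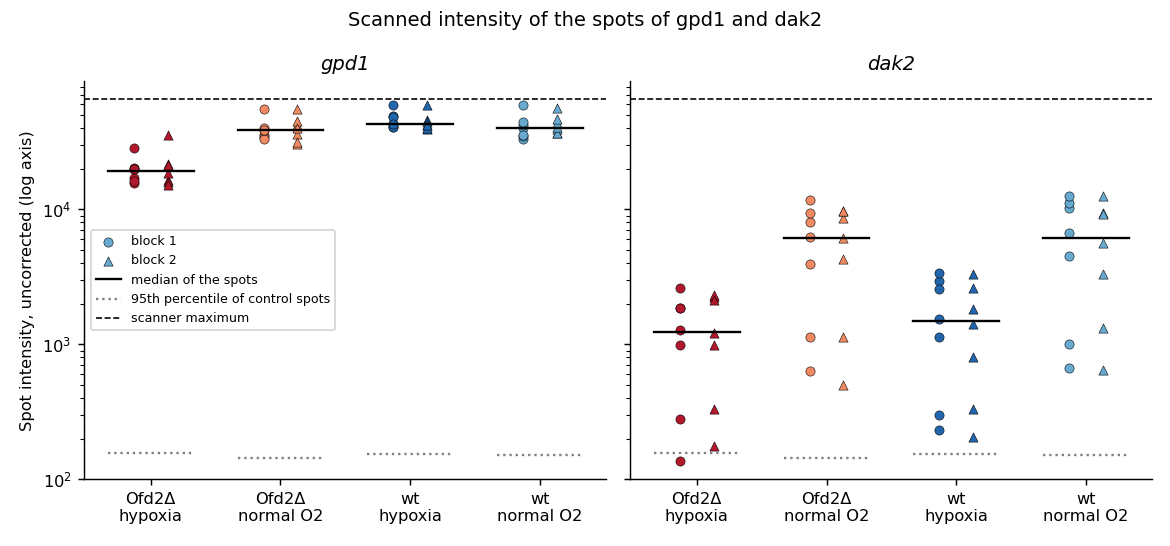
Scanned intensity of the 14 spots of gpd1 (left) and dak2 (right) on each array, on a log axis and before any correction. Circles are block 1, triangles block 2, bars the median of the spots, dotted lines the 95th percentile of the control spots and the dashed line the scanner maximum. All gpd1 spots lie between 15257 and 59771, below the scanner maximum, and the dak2 medians are 1244 and 1479 in hypoxia, against 6153 and 6114 in normal oxygen (Ofd2Δ and wt cells in each pair).

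After normalisation, the 2 blocks gave gpd1 levels of 39444 and 37868 in Ofd2Δ cells in hypoxia, against 33691 and 34009 in Ofd2Δ cells in normal oxygen. In wt the levels were 41312 and 36603 in hypoxia, against 33918 and 33385 in normal oxygen. With this normalisation, both hypoxia arrays were above both normal oxygen arrays in each block, by a margin far short of 2-fold, and in Ofd2Δ cells the order turned when each array was scaled to a common median. The ratio of hypoxia to normal oxygen, taken per block and averaged, was 1.14 in Ofd2Δ cells (block ratios 1.17 and 1.11) and 1.16 in wt (1.22 and 1.10), against a median of 1.02 over all targets in both strains. With scaling to a common median the gpd1 ratio in Ofd2Δ cells was 0.825 in place of 1.14. Single spots of gpd1 had ratios of 0.909 to 1.69 in Ofd2Δ cells and 0.960 to 1.38 in wt, and 12 of 14 spots were higher in hypoxia in each strain. Of all targets, 1285 had a higher ratio than gpd1 in Ofd2Δ cells and 541 in wt.

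By its 7 probes, gpd1 had ratios between 1.06 and 1.34 in Ofd2Δ cells and between 1.00 and 1.27 in wt. Of the 7 probes, 0 reached 2-fold in either strain. In wt in normal oxygen the probe means ran from 35176 to 58063 before correction, and 2-fold more would pass the scanner maximum. In Ofd2Δ cells the normalised gpd1 level also had no room for 2-fold, as given below. The count of 0 probes thus cannot decide whether the transcript rose 2-fold. The lowest ratio came in both strains from the probe that lies furthest along the target, at position 993. The highest came from the probe at position 22 in Ofd2Δ cells and from that at position 138 in wt.

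In the deposited value table, gpd1 was about 2-fold higher in hypoxia in both strains. Its rows held 57269 and 56675 in Ofd2Δ cells in hypoxia, against 26404 and 28637 in Ofd2Δ cells in normal oxygen. For wt they held 57922 and 56336 in hypoxia, against 27665 and 28794 in normal oxygen. The rows of the hypoxia arrays were above those of the normal oxygen arrays, and the strains lay close together within each condition. The ratio was 2.07 in Ofd2Δ cells (rows 2.17 and 1.98) and 2.03 in wt (2.09 and 1.96). In all, 18 targets in Ofd2Δ cells and 21 in wt had a higher ratio in that table, where gpd1 stood at the 99.98th percentile of level in Ofd2Δ cells in hypoxia and the 99.96th in wt in hypoxia.

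The study's threshold for a changed gene is 2-fold. By the probe intensities gpd1 was past it in 0 of the 2 strains, and of the 4997 targets 0.440% were past it upwards in Ofd2Δ cells and 0.160% in wt. In that source gpd1 already stood at 33850 in Ofd2Δ cells and 33650 in wt in normal oxygen. The highest level of any target in hypoxia was 59677 in Ofd2Δ cells and 58914 in wt. A 2-fold higher gpd1 was thus out of reach there, and the count of 0 cannot decide whether the transcript rose 2-fold. By the value table gpd1 was past it in 2 of 2 strains, where 0.500% of targets were higher in Ofd2Δ cells and 0.500% in wt. Since gpd1 was chosen for this difference between the sources, the counts are given as a description.

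The sources parted on the hypoxia arrays alone. The gpd1 level in the value table was divided by that from the probe intensities, and each array was scaled so that the median target stood at 1. The quotient for gpd1 was 1.73 in Ofd2Δ cells in hypoxia, against 0.944 in Ofd2Δ cells in normal oxygen. In wt it was 1.71 in hypoxia, against 0.973 in normal oxygen. Among the 3748 targets at or above the 25th percentile of level, 12 had a larger quotient than gpd1 in Ofd2Δ cells in hypoxia and 4 in wt in hypoxia. The central 99% of these targets had quotients of 0.629 to 1.64 in Ofd2Δ cells in hypoxia and 0.873 to 1.23 in wt in hypoxia. On both arrays gpd1 lay outside that range. As gpd1 was chosen for the gap between the sources, its rank and place there are a description. In normal oxygen the range was 0.872 to 1.13 for Ofd2Δ cells and 0.873 to 1.13 for wt, and gpd1 lay within it. What in the making of the value table goes with this gap was not tested.

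**Figure D2:**
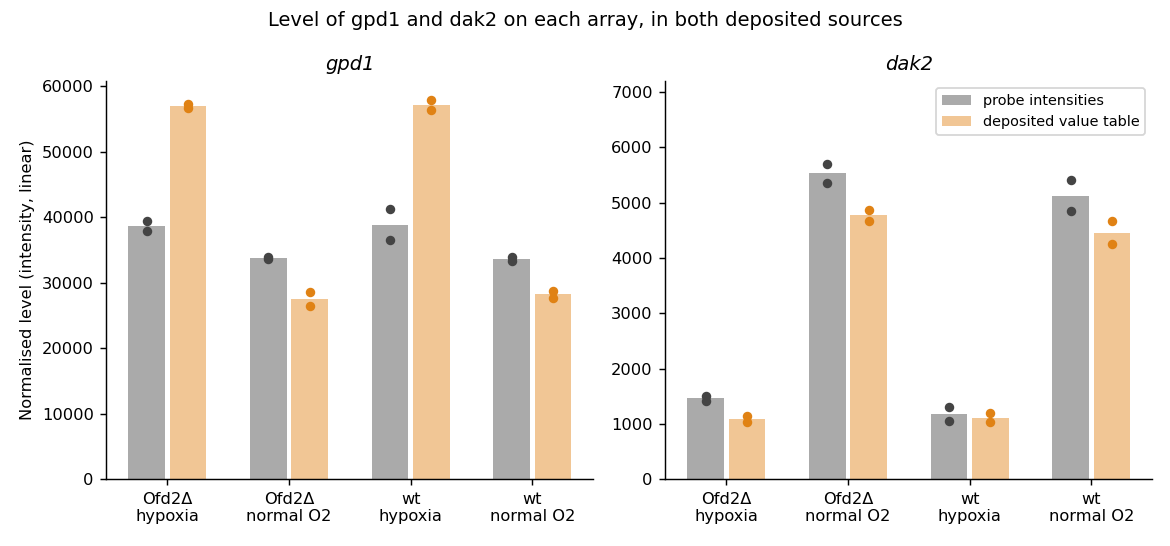
Normalised level (intensity, linear axis from 0) of gpd1 and dak2 on each array, from the probe intensities (grey) and from the deposited value table (orange), with separate axes for the genes. Bars are the mean of 2 blocks or rows, and points are the single blocks or rows. For gpd1 the orange bars stand at 56972 in Ofd2Δ and 57129 in wt cells in hypoxia, above grey bars of 38648 and 38887, while the grey bars of dak2 stand at 1462 in Ofd2Δ and 1176 in wt cells in hypoxia, against 5532 and 5126 in normal oxygen, with the orange bars near them.

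The gap also concerned how gpd1 compares with other bright targets. By the probe intensities, 71 targets had a mean level at or above that of gpd1 (gpd1 included). Their highest ratio was 1.27 in Ofd2Δ cells and 1.22 in wt, and 0 of them were 2-fold higher. Of all targets 0.440% were so in Ofd2Δ cells and 0.160% in wt. The highest target in hypoxia stood at only 1.99 times the 97th percentile of level in Ofd2Δ cells and 1.92 times in wt. Such bright targets thus had little room for 2-fold, and nothing is read from the 0. In the value table, where the same spans were 2.67 and 2.12 times, 4 of the same 71 targets were at least 2-fold higher in Ofd2Δ cells and 4 in wt. Of all targets 0.500% were so in each strain. The 4 were gpd1, the ergosterol synthesis genes erg11 and erg25, and sur2, named here after their values were seen.

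The transcript of dak2 was lower in hypoxia in both strains and in both sources. Before correction, the dak2 spots ran from 136 to 2630 with a median of 1244 in Ofd2Δ cells in hypoxia, against 501 to 11662 with a median of 6153 in Ofd2Δ cells in normal oxygen. In wt they ran from 207 to 3388 with a median of 1479 in hypoxia, against 642 to 12603 with a median of 6114 in normal oxygen. The spot ranges of the conditions overlapped, while after normalisation 14 of 14 spots were lower in hypoxia in each strain when each spot was set against the same spot in normal oxygen. The median dak2 spot was 11.10 times the control median in Ofd2Δ cells in hypoxia, against 50.4 times in Ofd2Δ cells in normal oxygen, and 11.7 times in wt in hypoxia, against 49.1 times in wt in normal oxygen. In Ofd2Δ cells in hypoxia 13 of 14 spots exceeded the 95th percentile of the controls, against 14 of 14 on the other arrays.

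The 2 blocks gave normalised dak2 levels of 1505 and 1421 in Ofd2Δ cells in hypoxia, against 5365 and 5705 in Ofd2Δ cells in normal oxygen. In wt the levels were 1315 and 1052 in hypoxia, against 5411 and 4856 in normal oxygen. The hypoxia and normal oxygen blocks were far apart in each strain. Among all targets dak2 stood at the 9.57th percentile of level in Ofd2Δ cells in hypoxia, against the 44.3rd in Ofd2Δ cells in normal oxygen, and at the 8.28th in wt in hypoxia, against the 41.2nd in wt in normal oxygen.

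The ratio of hypoxia to normal oxygen for dak2 was 0.265 in Ofd2Δ cells (blocks 0.280 and 0.249) and 0.230 in wt (0.243 and 0.217). Of the 4997 targets, 5 had a lower ratio in Ofd2Δ cells and 0 in wt. Single spots above the 95th percentile of the controls ranged from 0.172 to 0.379 in Ofd2Δ cells (13 spots) and from 0.176 to 0.304 in wt (14 spots). In the value table the rows of dak2 held 1152 and 1034 in Ofd2Δ cells in hypoxia, against 4865 and 4677 in Ofd2Δ cells in normal oxygen. For wt they held 1206 and 1031 in hypoxia, against 4662 and 4247 in normal oxygen. The table's ratios were 0.229 in Ofd2Δ cells, with 2 targets lower, and 0.251 in wt, with 1 target lower. The sources thus gave dak2 a decrease of similar size, and its quotient of table to probe level was between 0.875 and 1.10 on the 4 arrays. By the probe intensities dak2 was at least 2-fold lower in 2 of 2 strains, where 1.00% of targets were so in Ofd2Δ cells and 0.640% in wt. The same held in the value table, where the shares were 0.841% and 0.580%. These counts carry no weight as a finding, since dak2 was chosen for its decrease.

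Of the 7 dak2 probes, that at position 555 had spots of 136 and 177 in Ofd2Δ cells in hypoxia, beside a 95th percentile of 158 for the controls, and no fold is given for it in that strain. The other 6 probes were at least 2-fold lower in hypoxia in both strains, with ratios of 0.201 to 0.350 in Ofd2Δ cells and 0.188 to 0.299 in wt. The highest ratio came from the probe at position 655 in both strains and the lowest from that at position 348. Without the probe at position 555, an alternative chosen after seeing the data, the dak2 ratio was 0.284 in Ofd2Δ cells and 0.237 in wt.

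**Figure D3:**
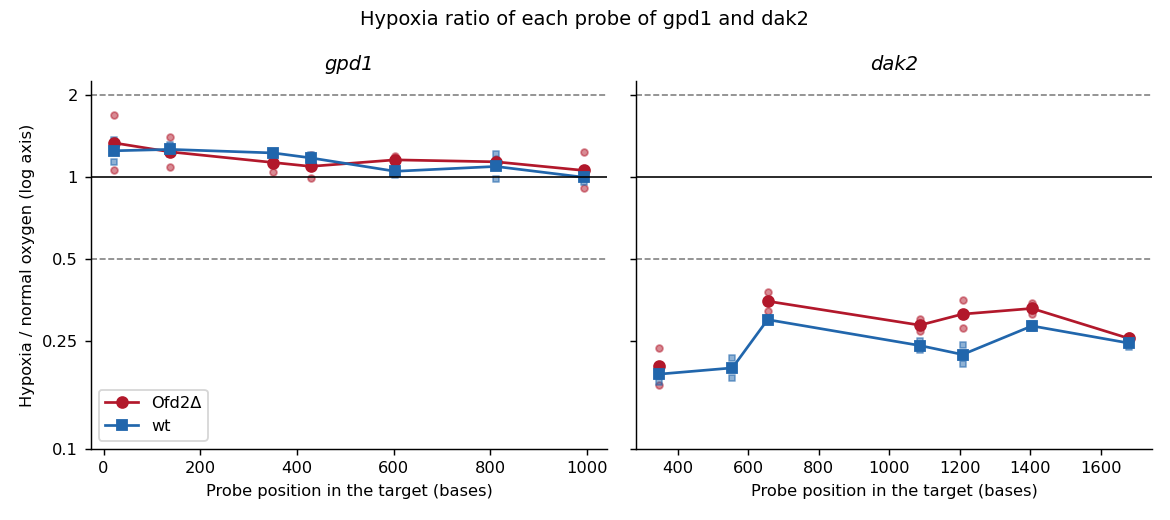
Ratio of hypoxia to normal oxygen (log axis) for each probe of gpd1 (left) and dak2 (right) against the probe's position in the target in bases. Large symbols joined by lines are the mean of both blocks, small symbols the single blocks, red Ofd2Δ and blue wt, and dashed lines mark 2-fold. All gpd1 probes lie between 1.00 and 1.34 and the dak2 probes shown between 0.188 and 0.350. The dak2 probe at position 555 is left out for Ofd2Δ cells, where it was not above the 95th percentile of the controls in hypoxia.

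Between the strains, the level of gpd1 hardly differed. In normal oxygen the Ofd2Δ level was 1.01 times the wt level, with single spots at 0.804 to 1.20 times, and in hypoxia it was 0.995 times, with single spots at 0.845 to 1.28 times. The value table gave 0.974 times in normal oxygen and 0.997 times in hypoxia. The hypoxia ratio of gpd1 in Ofd2Δ cells came to 0.987 times that in wt from the probe intensities and 1.02 times in the value table. Scaling the arrays to a common median instead gave 0.772 times in hypoxia and 0.697 times for the ratio of ratios, so the nearness of the strains in hypoxia held under quantile normalisation and in the value table but not under that scaling.

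For dak2, the Ofd2Δ level in normal oxygen was 1.08 times the wt level (blocks 0.992 and 1.17), with single spots at 0.859 to 1.54 times and 10 of 14 higher in Ofd2Δ cells. In hypoxia it was 1.25 times (blocks 1.14 and 1.35), with the 13 single spots above the 95th percentile of the controls at 0.941 to 2.02 times and 10 of them higher in Ofd2Δ cells. The value table gave 1.07 times in normal oxygen and 0.979 times in hypoxia, so the sources differed in the direction of the hypoxia difference. The dak2 hypoxia ratio in Ofd2Δ cells came to 1.15 times that in wt from the probe intensities and 0.913 times in the value table. Between the strains the study used a limit of 1.5-fold, set on the hypoxia ratios of genes changed at least 2-fold. Here the same limit is also laid on the levels in each condition and on all targets. Neither gene was past it from either source in normal oxygen, in hypoxia or in the ratio of ratios, though scaling the arrays to a common median put dak2 in hypoxia at 1.56 times. The share of all targets past it from the probe intensities was 0.0800% upwards in Ofd2Δ cells and 0.220% downwards in normal oxygen, 1.62% and 0.720% in hypoxia, and 1.98% and 0.720% in the ratio of ratios. The value table had 0.0600% and 0.220% in normal oxygen, 0.800% and 0.340% in hypoxia, and 1.06% and 0.540% in the ratio of ratios.

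In order of level from the probe intensities, gpd1 stood highest in wt in hypoxia, at a mean of 38887, then in Ofd2Δ cells in hypoxia at 38648, in Ofd2Δ cells in normal oxygen at 33850 and in wt in normal oxygen at 33650. The blocks overlapped between the strains within each condition and did not overlap between the conditions. For dak2 the order was Ofd2Δ in normal oxygen at 5532, wt in normal oxygen at 5126, Ofd2Δ in hypoxia at 1462 and wt in hypoxia at 1176. The blocks of dak2 overlapped between the strains in normal oxygen and did not overlap in hypoxia, where the single spots pointed both ways. The share of all targets whose blocks lie apart is not given here, so these overlaps are a description only.

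Of a list of 9 genes of glycerol metabolism, 5 carry a name in the tables used. These are gpd1, dak2, the gene of the mitochondrial glycerol-3-phosphate dehydrogenase gut2, the triosephosphate isomerase gene tpi1 and the dak2 neighbour SPAC977.17. The genes gpd2, gut1, gld1 and dak1 are not among the named targets and were not analysed here. The names come from the held part of the study's full gene list and from its lists of genes past 2-fold in the value table. Genes past 2-fold there were thus more likely to carry a name. By the probe intensities, 0 of the 5 were at least 2-fold higher and 2, dak2 and SPAC977.17, were at least 2-fold lower in both strains, where 0.440% of all targets were higher and 1.00% lower in Ofd2Δ cells, and 0.160% higher and 0.640% lower in wt. Of that pair dak2 was chosen for its decrease, and SPAC977.17 overlaps it in the annotation. The median ratio of the 5 was 0.825 in Ofd2Δ cells and 0.718 in wt, against 1.02 over all targets in both. In the value table gpd1 was at least 2-fold higher and dak2 and SPAC977.17 were at least 2-fold lower, with medians of 0.943 in Ofd2Δ cells and 0.776 in wt. Since the naming favours genes past 2-fold, neither these counts nor these medians describe the whole list, and nothing is read from them.

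The level of SPAC977.17 was 5846 in Ofd2Δ cells in hypoxia, against 14139 in Ofd2Δ cells in normal oxygen. In wt it was 5845 in hypoxia, against 13529 in normal oxygen. Its ratios were 0.415 in Ofd2Δ cells and 0.432 in wt from the probe intensities, and 0.439 and 0.400 in the value table. Both it and dak2 were thus lower in hypoxia, dak2 by the larger factor. Of a list of 18 genes with systematic names close to that of dak2, only these 2 carry a name, and the naming favours changed genes. Their annotated spans overlap, and whether the labelling kept strand is not given in the sources used here, so a contribution of one transcript to the other's signal was not tested.

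The enzyme gut2 oxidises glycerol-3-phosphate at the mitochondrial inner membrane, the reverse of the gpd1 reaction. Its level was 8514 in Ofd2Δ cells in hypoxia, against 10408 in Ofd2Δ cells in normal oxygen. For wt it was 7808 in hypoxia, against 10915 in normal oxygen. The ratios of gut2 were 0.825 in Ofd2Δ cells and 0.718 in wt, and 0.943 and 0.776 in the value table, all short of 2-fold. Triosephosphate isomerase interconverts the glycolytic triose phosphates, among them dihydroxyacetone phosphate, the substrate of the gpd1 enzyme. Its gene tpi1 had ratios of 1.10 in Ofd2Δ cells and 1.07 in wt, and 0.999 and 1.11 in the value table.

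Of a list of 15 genes with systematic names close to that of gpd1, 2 carry a name, gpd1 itself and SPBC215.11c. Genes past 2-fold in the value table were more likely to carry a name. How common the gap between the sources is among the unnamed neighbours was not tested. SPBC215.11c, a predicted oxidoreductase gene, had a like gap in Ofd2Δ cells. Its ratios were 1.20 in Ofd2Δ cells and 1.75 in wt from the probe intensities, against 2.06 and 2.13 in the value table. Its quotient of table to probe level was 1.68 in Ofd2Δ cells in hypoxia, against 0.967 in Ofd2Δ cells in normal oxygen. In wt it was 1.12 in hypoxia, against 0.923 in normal oxygen, so that the gap seen for gpd1 in wt was smaller here.

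**Figure D4:**
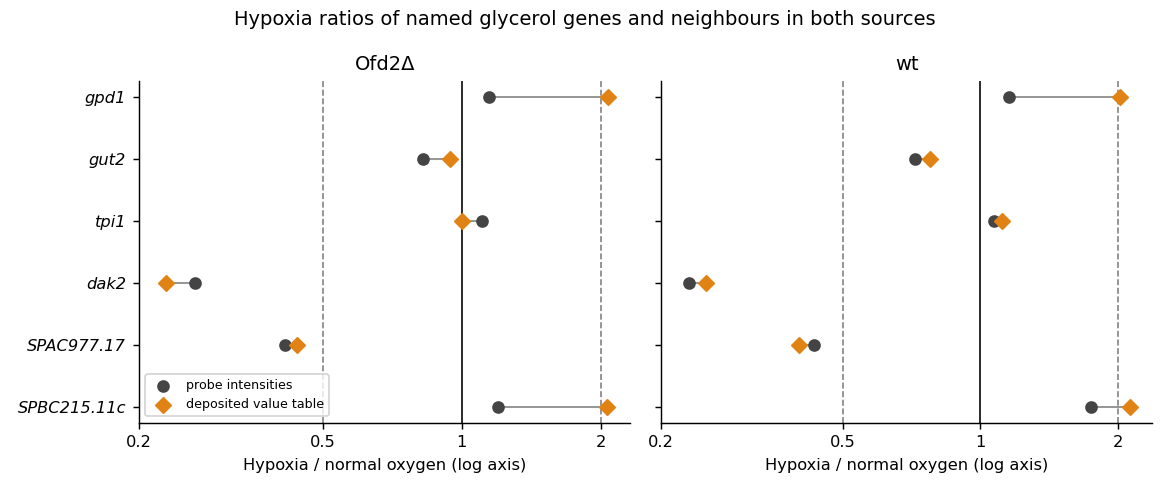
Ratio of hypoxia to normal oxygen (log axis) for gpd1, dak2, the other named genes of the glycerol list and SPBC215.11c, in Ofd2Δ (left) and wt cells (right). Circles come from the probe intensities and diamonds from the deposited value table, lines join the sources and dashed lines mark 2-fold. The sources stand at 1.14 and 2.07 for gpd1 in Ofd2Δ cells and at 1.16 and 2.03 in wt, while for dak2 both lie below 0.27.

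In S. pombe gpd1 is also a known target of the stress kinase Sty1 and its transcription factor Atf1. Of a list of 14 genes of that response, 4 carry a name. Besides gpd1 these are atf1 itself, with ratios of 1.07 in Ofd2Δ cells and 0.878 in wt, the trehalase gene ntp1, with 1.01 and 0.934, and the cation pump gene cta3, with 1.20 and 1.15. From the probe intensities 0 of the 4 were past 2-fold in either strain, where few of all targets were (0.440% higher and 1.00% lower in Ofd2Δ cells, 0.160% and 0.640% in wt), and nothing is read from so short a list. Its median ratio was 1.11 in Ofd2Δ cells and 1.04 in wt, against 1.02 over all targets in both. In the value table gpd1 alone of the 4 was past 2-fold, in both strains, and genes past 2-fold there were more likely to carry a name.

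The named genes with the pattern most like each member were found by centring the log2 levels of each target over the 4 arrays and taking the root mean square difference between targets. From the probe intensities the 5 nearest gpd1 were SPCC622.01c, erg28, SPCC757.14, tfg2 and SPBC582.11c, with differences of 0.010 to 0.015 on the log2 scale and hypoxia ratios of 1.13 to 1.18 in both strains. So small a change is shared by many targets. From the value table the 5 nearest gpd1 were rga5, erg5, mmd1, ppk33 and erg25, of which erg5 and erg25 encode enzymes of ergosterol synthesis. Their ratios lay between 2.01 and 2.14 in that table in both strains. From the probe intensities ppk33, a kinase gene at the 4.80th percentile of level, had ratios of 1.76 in Ofd2Δ cells and 2.06 in wt. The other 4 had ratios of 0.951 to 1.24. The gap between the sources was thus not particular to gpd1, though these 5 genes were picked by their values in the table.

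For dak2 the nearest named genes from the probe intensities were SPAC1F12.10c, at a difference of 0.18 on the log2 scale, and then nrg1, pmp20, rec15 and mic26, at 0.34 to 0.37. SPAC1F12.10c had ratios of 0.319 in Ofd2Δ cells and 0.292 in wt. From the value table the nearest were meu26, rec15, cyc1, SPBC11C11.06c and mic26, at 0.27 to 0.33. Both sources thus named rec15, a gene of meiotic recombination, and mic26, a gene of the mitochondrial inner membrane organising complex, beside dak2. By level from the probe intensities, rec15 stood at the 5.22nd percentile, meu26 at the 6.44th and mic26 at the 31.1st. The ratios of rec15 and meu26 therefore rest on low signal. With 4 arrays, such likeness is a description of these arrays.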

How the data were processed

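Transcripts were measured on 1-colour (Cy3) NimbleGen arrays, 1 per condition. The authors deposited scanned spot intensity values, extracted with NimbleScan 2.4.31 per the file headers and on a linear scale without correction. They also deposited a table of normalised gene intensity values, for which the submitters' processing notes name RMA without a version. How the arrays were scaled in that table is not stated beyond this. The table has 2 rows per target and no target names. The rows were taken in the order of the target identifiers, and 1694 of 1694 targets of the held supplementary table had the same values there. The log2 levels of the sources correlated across targets at r of 0.985 to 0.998 on the 4 arrays. Genes are not independent replicates.

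Here, spot intensities were corrected with the RMA convolution background fitted on the 69954 gene spots and 2083 control spots of each array, then quantile-normalised with the 4 arrays together. Their log2 values entered a median polish over 7 probes and 4 arrays, separately for each block of a target. A ratio is the mean of the 2 block ratios. The thresholds of 2-fold for hypoxia and 1.5-fold between strains are those of the study. It set the 1.5-fold limit on the hypoxia ratios of its changed genes, and the wider use here is not the study's. No test was made on single arrays, whose number limits the precision. Samples were grouped by their titles. Targets were named from the supplementary tables (1646 of 4997), and 1543 were found in the RefSeq table of ASM294v3. Those tables include the study's lists of genes past 2-fold in hypoxia, so such genes were more likely to be named. The steps were tested on simulated data without a scanner maximum, which cannot show how that maximum limits targets as bright as gpd1. Alternatives changed the background correction, the scaling, the probe summary, the block, the averaging, the arrays normalised together, the filter on dim targets and the source of values. Both genes and all lists were chosen with earlier results of these data known. Genes named were the members, the named genes of the lists and, for each member and source, the 5 named targets nearest in pattern. R 4.3.3 with limma 3.58.1 gave the normexp background, and all else ran in Python 3.11.15 (pandas 2.3.3, numpy 2.4.6, matplotlib 3.10.9, scipy 1.17.1). No sequences of the probes or genes were used here.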

Additional observations from a re-analysis of the deposited data

How the results depend on the processing

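No paired analysis was possible because each condition has 1 array. Of 47 alternative values for gpd1, 8 moved by more than the spread between its spots, and of 52 for dak2, 2 did, with 5 of the 52, those without the dak2 probe not above the controls, chosen after seeing the data. For gpd1 in Ofd2Δ cells, median scaling gave a hypoxia ratio of 0.825, no normalisation between arrays 0.490 and the value table one of 2.07, and in wt the value table gave 2.03. The Ofd2Δ ratio of gpd1 over its wt ratio was 0.697 with median scaling and 0.445 without normalisation, and its Ofd2Δ over wt level in hypoxia 0.772 and 0.431. Without normalisation the median log2 ratio of all targets was itself -0.76 in Ofd2Δ cells, a shift of -0.78. For dak2 the wt ratio was 0.292 without background correction, and the Ofd2Δ over wt level in hypoxia was 0.866 without normalisation. That level was 1.56 with median scaling, past 1.5-fold. Other than without normalisation, settings based on the probe intensities gave dak2 ratios of 0.249 to 0.316 in Ofd2Δ cells and 0.217 to 0.292 in wt. For gpd1 in wt they gave 1.10 to 1.22.

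Of 52 alternative counts of targets, 20 differed from the main count by more than 1.5 times. Targets at least 2-fold higher in Ofd2Δ cells numbered 22, against 14 without background correction, 122 with median scaling, 7 without normalisation and 9 without dim targets, those under the 25th percentile of level. Lower ones numbered 50, against 1395 without normalisation and 21 without dim targets. In wt 8 targets were higher, against 4 without background correction, 5 with the normexp background, 5 with median scaling, 5 without normalisation, 25 in the value table and 3 without dim targets. Lower ones numbered 32, against 61 without normalisation and 11 without dim targets. Strain ratios at least 1.5-fold apart numbered 135, against 88 without background correction, 682 with median scaling, 2980 without normalisation, 211 from block 1 alone, 80 in the value table and 46 without dim targets. The causes were not tested. The dim dak2 spots in hypoxia, about 11 times the control median, and the single array per condition limit these values.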

Other observations

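The gap between the value table and the probe intensities seen at gpd1 was also present at other targets, and more of them on the hypoxia arrays. Of the 3748 targets at or above the 25th percentile of level, 36 had a quotient of table to probe level of at least 1.5 in Ofd2Δ cells in hypoxia, against 0 in Ofd2Δ cells in normal oxygen. In wt 11 did in hypoxia, against 0 in normal oxygen. Quotients at or below the inverse of 1.5 numbered 35 in Ofd2Δ cells in hypoxia, against 4 in normal oxygen, and 3 in wt in hypoxia, against 2 in normal oxygen. Over all targets, the log2 hypoxia ratios of the sources correlated at r of 0.602 in Ofd2Δ cells and 0.945 in wt, where the points share arrays and genes are not independent replicates. The cause was not tested.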
